A study of Mus musculus with 9 samples.

Results

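Zfp36, Zfp36l1, Zfp36l2, Btg1, Btg2, Btg3, Tob1 and Tob2 encode proteins that shorten the life of mRNAs or hold back cell division, and their mRNA levels are described here across 9 RNA-seq libraries of mouse cells sorted as long-term hematopoietic stem cells (LT-HSCs). The 8 genes were chosen by symbol from the 56262 gene IDs of each count table, all 8 were found, and all 8 passed the filter on low counts that left 16595 genes for testing. There were 3 groups of 3 libraries each, all from C57BL/6 wild-type mice. The 5-FU+FMT mice received 5-FU (5-fluorouracil, a chemotherapy agent toxic to cycling cells), 250 mg/kg body weight, and then FMT, an agent that the labels do not spell out, at 5 mg/kg by vein on days 1, 4 and 7. The 5-FU+Saline mice received the same dose of 5-FU followed by saline, which the design text calls PBS, and the Control mice were untreated. Treated mice were killed on day 8. The sort took cells without lineage markers that carried Sca1, c-Kit and CD150, with a last sort marker that the labels write as C48-. The labels give neither the age nor the sex of the mice, and do not say if mice were pooled for a library, so the spread between libraries may be technical.

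The ZFP36 proteins are zinc-finger proteins that bind AU-rich sequences in the 3′ untranslated region (3′ UTR) of an mRNA and bring in the CCR4-NOT complex, which removes the poly(A) tail and so starts decay. The BTG and TOB proteins bind the deadenylase subunits of the same complex through a shared domain, and were first known for slowing cell division when overproduced. In blood cells these families are known for restraining cytokine mRNAs and for keeping lymphocytes quiescent, and Zfp36l2 is required in mice for normal blood stem and progenitor cells.

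Each library held between 11098031 and 19270976 counts, and the lowest count of any of the 8 genes in any library was 329. Levels are CPM (a library's counts for a gene, scaled to the same library total) after scaling by the trimmed mean of M values. The libraries of a group lay close together, with a biological coefficient of variation of 3.74% over all genes tested. Marker lists moved with the groups. The sum of 12 LT-HSC markers was 1659 to 1707 CPM in 5-FU+FMT, 1360 to 1371 CPM in 5-FU+Saline and 2148 to 2153 CPM in Control. Among these markers, Slamf1, which encodes the sort marker CD150, averaged 24.4 CPM in 5-FU+FMT, 34.5 CPM in 5-FU+Saline and 8.35 CPM in Control. The sum of 8 neutrophil granule markers was 865 to 985 CPM in 5-FU+FMT, 153 to 169 CPM in 5-FU+Saline and 2271 to 2307 CPM in Control. Mpo, Elane, Prtn3 and Ctsg carry this sum, while S100a9, Ltf and Ngp went the other way and were called higher in 5-FU+Saline than in Control, with Ngp at 4.55 CPM in 5-FU+FMT, 8.45 CPM in 5-FU+Saline and 0.865 CPM in Control. That of 8 erythroid markers was 182 to 192 CPM in 5-FU+FMT, 25.4 to 27.4 CPM in 5-FU+Saline and 429.8 to 442 CPM in Control. The sum of 7 stromal markers was 72.6 to 75.3 CPM in 5-FU+FMT, 236 to 243 CPM in 5-FU+Saline and 60.7 to 61.0 CPM in Control. Pdgfrb makes up most of the Control sum, at 27.6 CPM in 5-FU+FMT, 13.0 CPM in 5-FU+Saline and 57.1 CPM in Control. The 6 others were called higher than Control in both groups given 5-FU, with Cxcl12 at 24.2 CPM in 5-FU+FMT, 127 CPM in 5-FU+Saline and 2.32 CPM in Control. The sum of 7 B-lineage markers was 2869 to 2982 CPM in 5-FU+FMT, 2573 to 2616 CPM in 5-FU+Saline and 4069 to 4223 CPM in Control, most of it Ighm. The 6 other B-lineage markers were called higher than Control in both groups given 5-FU, with Pax5 at 65.4 CPM in 5-FU+FMT, 142 CPM in 5-FU+Saline and 0.501 CPM in Control. The sum of 6 progenitor markers was 909 to 936 CPM in 5-FU+FMT, 619 to 636 CPM in 5-FU+Saline and 1346 to 1379 CPM in Control. Of these, 3 were called lower and 3 higher in 5-FU+Saline than in Control. Flt3 averaged 280 CPM in 5-FU+FMT, 70.9 CPM in 5-FU+Saline and 584 CPM in Control. Cd48 went the other way, at 46.7 CPM in 5-FU+FMT, 53.7 CPM in 5-FU+Saline and 30.7 CPM in Control. No marker of these lists was at 0 in a whole group. The female-specific RNA Xist averaged 682 CPM in 5-FU+FMT, 1201 CPM in 5-FU+Saline and 0.870 CPM in Control, while the Y-linked Ddx3y averaged 100.04 CPM in 5-FU+FMT, 38.9 CPM in 5-FU+Saline and 168 CPM in Control. The 5-FU+FMT libraries ranged from 659 to 695 CPM for Xist and from 98.0 to 102 CPM for Ddx3y. The 5-FU+Saline libraries ranged from 1183 to 1223 CPM for Xist and from 37.1 to 41.9 CPM for Ddx3y. Every library of the 5-FU groups thus held both RNAs, and the SDs and p-values here may not measure the spread between mice. By these RNAs the groups differed in sex makeup, and in every comparison here sex makeup and treatment cannot be told apart. All 8 genes described here are autosomal, and the part of sex makeup in their levels was not tested. The part of these marker differences in the results that follow was not tested. In bulk RNA, fewer cells of a type and less RNA per cell cannot be told apart.

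Together the 8 genes took 0.378% to 0.396% of all counts in 5-FU+FMT, 0.282% to 0.290% in 5-FU+Saline and 0.550% to 0.552% in Control. Their summed level was 3838 ± 86.6 CPM in 5-FU+FMT, 2857 ± 33.1 CPM in 5-FU+Saline and 5606 ± 11.9 CPM in Control (SD, n = 3 each). Against Control, 5-FU+Saline libraries had lower levels of all 8 genes, and none was higher. In that comparison 65.5% of all genes tested were called, 32.7% lower and 32.8% higher, by edgeR's quasi-likelihood test at a Benjamini-Hochberg adjusted p under 0.05, which is the threshold used throughout. Against 5-FU+Saline, 5-FU+FMT libraries had higher levels of 7 genes and lower levels of none, where 36.9% of all genes were called, 17.7% higher and 19.2% lower. Tob2 was not called. Against Control, 5-FU+FMT libraries had lower levels of 7 genes and higher levels of none, where 46.6% of all genes were called, 21.6% lower and 25.0% higher. Zfp36l2 was not called there. With upper-quartile scaling in place of the trimmed mean, the calls over all genes in this last comparison split into 3315 higher and 4559 lower, against 4151 higher and 3584 lower. In 5-FU+Saline against Control that scaling gave 4661 higher and 6210 lower, against 5443 higher and 5429 lower. All 3 comparisons draw on the same 3 groups, so they are not independent of each other.

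**Figure D1:**
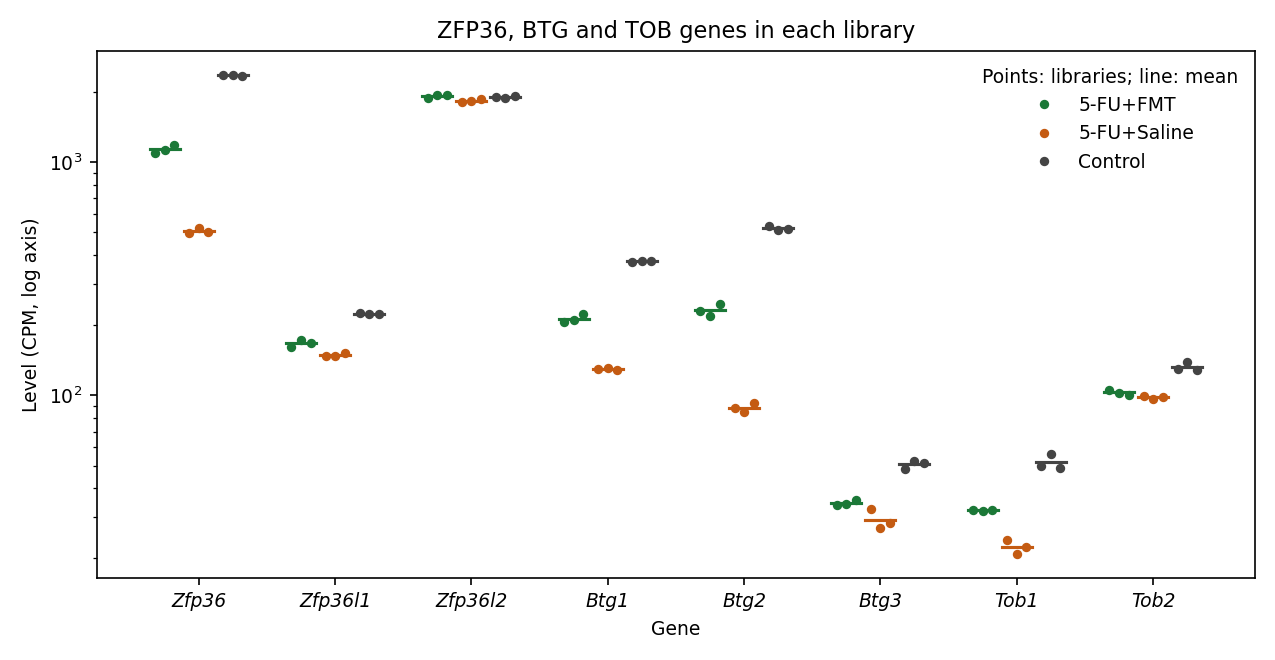
Level of each of the 8 genes in every library, in CPM on a log axis, with 5-FU+FMT at the left, 5-FU+Saline in the middle and Control at the right above each gene's name; each point is a library and each line a group's mean. Zfp36 and Btg2 show the widest gaps between groups, and Zfp36l2 lies near the same height in all 9 libraries.

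The median log2 fold change of the 8 genes was -0.998 in 5-FU+Saline against Control, 0.38 in 5-FU+FMT against 5-FU+Saline and -0.61 in 5-FU+FMT against Control. Over all genes tested the median was -0.02 in 5-FU+Saline against Control, 0.01 in 5-FU+FMT against 5-FU+Saline and -0.01 in 5-FU+FMT against Control. The libraries of both groups did not overlap for 8 of 8 genes in 5-FU+Saline against Control, where 67.8% of all genes did not overlap. They did not overlap for 8 of 8 genes in 5-FU+FMT against 5-FU+Saline, where the figure over all genes was 46.3%, and for 7 of 8 in 5-FU+FMT against Control, where it was 52.7%. Within the 8 genes the size of the change ranged widely, and it followed neither family as a block: each family held a strongly changed member and a weakly changed one.

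Zfp36 encodes tristetraprolin, which destabilises the mRNAs of tumour necrosis factor and other cytokines. Its gene lies on mm10 chromosome 7, from 28376784 to 28380253 on the minus strand. Zfp36 levels were 1098, 1128 and 1184 CPM in the 5-FU+FMT libraries, 499, 519 and 502 CPM in the 5-FU+Saline libraries, and 2368, 2353 and 2339.9 CPM in the Control libraries. The 3 groups stood fully apart, and every 5-FU+FMT library lay between the 5-FU+Saline and the Control libraries. Zfp36 was 4.64-fold lower in 5-FU+Saline than in Control (log2 fold change -2.22, SE 0.0247, adjusted p 4.24e-73). A fall at least as large was fitted for 2.43% of all genes tested. It was 2.24-fold higher in 5-FU+FMT than in 5-FU+Saline (log2 fold change 1.17, SE 0.0244, adjusted p 1.08e-53) and 2.07-fold lower in 5-FU+FMT than in Control (log2 fold change -1.05, SE 0.0236, adjusted p 2.16e-51).

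Zfp36l1, whose protein shares the zinc fingers and acts in lymphocyte development, lies on chromosome 12, from 80107754 to 80113013 on the minus strand. Its levels were 162, 172 and 168 CPM in 5-FU+FMT, 147, 148 and 152 CPM in 5-FU+Saline, and 226, 224 and 223 CPM in Control. The order of the groups was that of Zfp36, again without overlap, but the distances were smaller. Zfp36l1 was 1.505-fold lower in 5-FU+Saline than in Control (adjusted p 7.72e-26), 1.12-fold higher in 5-FU+FMT than in 5-FU+Saline (adjusted p 6.52e-05) and 1.34-fold lower in 5-FU+FMT than in Control (adjusted p 9.65e-18). A rise at least as large as that in 5-FU+FMT against 5-FU+Saline was fitted for 31.0% of all genes, so its size was ordinary for that comparison.

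Zfp36l2, the family member tied to blood stem and progenitor cells in mice, lies on chromosome 17, from 84183931 to 84187947 on the minus strand. It had 1889, 1932 and 1938 CPM in 5-FU+FMT, 1802, 1835 and 1862 CPM in 5-FU+Saline, and 1893, 1890.1 and 1911 CPM in Control. It was thus nearly level across the study, with means of 1919 ± 27.0 CPM in 5-FU+FMT, 1833 ± 30.4 CPM in 5-FU+Saline and 1898 ± 11.7 CPM in Control (SD, n = 3 each). Zfp36l2 was called lower in 5-FU+Saline than in Control with a log2 fold change of -0.05 (SE 0.0213, adjusted p 0.0332), and 8 of 17 alternatives ended this call. Leaving out Control replicate 1, 2 or 3 gave adjusted p of 0.0574, 0.0504 and 0.111, and leaving out 5-FU+Saline replicate 1 or 2 gave 0.223 and 0.0904. Over the 17 alternatives the log2 fold change ranged between -0.13 with upper-quartile scaling (adjusted p 5.13e-07) and -0.01 with no filter on low counts (adjusted p 0.874). The 5-FU+FMT libraries were higher than the 5-FU+Saline libraries by 0.07 on the log2 scale (SE 0.0213, adjusted p 0.00954), a call that ended when 5-FU+Saline replicate 1 was left out (adjusted p 0.0775) and with size factors by relative log expression (adjusted p 0.0503). Against Control the log2 fold change in 5-FU+FMT was 0.02 (SE 0.0213, adjusted p 0.566) and the libraries overlapped.

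The mRNAs of all 3 ZFP36 genes carry in their own 3′ UTR the kind of AU-rich sequence that ZFP36 proteins bind, and a stretch of each is shown because these genes belong to the class of mRNA that their proteins act on. Stretches are on GRCm38, read 5′ to 3′ on the minus strand in the DNA alphabet, with the heptamer TATTTAT in capitals.
Zfp36, chr7:28376962-28376991: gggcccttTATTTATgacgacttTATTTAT
Zfp36l1, chr12:80108163-80108192: tgttggatTATTTATtttagaaattctccc
Zfp36l2, chr17:84184910-84184939: atttaactTATTTATtatcttgtgaaaagt

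In the longest 3′ UTR of each gene in the GENCODE M21 annotation, read on the mRNA's strand, Zfp36, Zfp36l1 and Zfp36l2 each held 3 heptamers. Each also held 1 copy of the nonamer TTATTTATT, which contains the heptamer. Over the 21037 genes with a 3′ UTR, 27.6% held the heptamer and 7.65% the nonamer. The Zfp36 3′ UTR is short, at 774 bases, and 1.25% of 3′ UTRs within 20% of its length held as many heptamers. For Zfp36l1 and Zfp36l2, whose 3′ UTRs have 1835 and 1822 bases, that share was 4.27% in both. Btg2 and Tob2 held 1 heptamer each, in 2199 and 2457 bases, while Btg1, Btg3 and Tob1 held neither heptamer nor nonamer. The shorter letters ATTTA, which the heptamer contains, occurred in all 8 3′ UTRs. Zfp36, Zfp36l1 and Zfp36l2 held 3, 9 and 5 copies, and Btg1, Btg2 and Btg3 held 11, 5 and 5. Tob1 and Tob2 held 3 and 4. The 3 genes richest in heptamers included the member with the steepest fall of its family, Zfp36, and the member that stayed nearly level, Zfp36l2. A match of letters is a description and not a measured binding site.

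Btg2 encodes an anti-proliferative protein that p53 induces, and its mRNA is among those made within minutes of stimulation. The gene lies on chromosome 1, from 134075170 to 134079120 on the minus strand. Btg2 levels were 229, 219 and 246 CPM in 5-FU+FMT, 88.2, 84.6 and 93.2 CPM in 5-FU+Saline, and 532, 512 and 515 CPM in Control. As with Zfp36, no library of one group came near those of another. Btg2 was 5.85-fold lower in 5-FU+Saline than in Control (log2 fold change -2.55, SE 0.0357, adjusted p 3.60e-66), and 1.75% of all genes fell at least as far. In 5-FU+FMT it was 2.60-fold higher than in 5-FU+Saline (log2 fold change 1.38, SE 0.0372, adjusted p 2.92e-46) and 2.25-fold lower than in Control (log2 fold change -1.17, SE 0.0326, adjusted p 4.03e-45). In each of the 3 comparisons Btg2 had the largest fitted change of the 8 genes and Zfp36 the next largest.

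Promoters were read from the RefSeq promoter table (GRCm38.p6) for the 7 genes with an entry, and sequence is shown for Btg2 and Zfp36 because they changed most. The 250 bases before the Btg2 start, shown whole on the minus strand, hold the palindromic cyclic AMP response element TGACGTCA and 2 copies of the CCAAT box, all in capitals.
Btg2, chr1:134079156-134079405: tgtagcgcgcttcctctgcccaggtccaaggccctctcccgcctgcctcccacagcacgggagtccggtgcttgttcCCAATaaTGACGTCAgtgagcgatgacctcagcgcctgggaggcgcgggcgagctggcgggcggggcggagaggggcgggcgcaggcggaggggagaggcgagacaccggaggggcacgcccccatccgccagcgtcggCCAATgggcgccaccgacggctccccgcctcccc
Zfp36, chr7:28379267-28379296: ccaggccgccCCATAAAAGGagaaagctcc

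The Zfp36 line shows 30 bases on the minus strand around a CArG box, in capitals, the element that serum response factor binds; it begins 58 bases before the RefSeq start, inside a longer first exon that another annotated transcript has. The cyclic AMP response element of Btg2 begins 166 bases before its start. With both strands searched over the 250 bases before each start, the full element occurred in 1.55% of 32851 promoters and, of the 7 genes with an entry, in Btg2. Its first letters, TGACG, occurred in 17.8% of promoters and in 3 of the genes, Btg1, Btg2 and Tob1. A CArG box occurred in 1.47% of promoters and in Zfp36. The letters TGANTCA are a loose form of the AP-1 site, with any base at N. They were present in 6.75% of promoters and in Zfp36l1, there as TGATTCA. The letters TATAAA (12.4% of promoters) occurred in Zfp36l1, Btg1 and Tob1, and CCAAT (33.8%) in 5 genes, while the E-box CACGTG (6.02%) occurred in none. Zfp36l2 has no entry in the table, and Btg3 has 2 entries. The part of these elements in the changes of the genes was not tested.

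Btg1, the paralogue that with Btg2 keeps mouse T cells quiescent, lies on chromosome 10, from 96617006 to 96622809 on the plus strand. It had 206, 209.6 and 223 CPM in 5-FU+FMT, 129.7, 131 and 129 CPM in 5-FU+Saline, and 372, 377 and 377 CPM in Control. The groups did not overlap and kept the order seen for Btg2. Btg1 was 2.89-fold lower in 5-FU+Saline than in Control (log2 fold change -1.53, SE 0.0327, adjusted p 1.31e-53), 1.64-fold higher in 5-FU+FMT than in 5-FU+Saline (log2 fold change 0.71, SE 0.0338, adjusted p 2.19e-30) and 1.77-fold lower in 5-FU+FMT than in Control (adjusted p 3.19e-36).

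Btg3, a more distant paralogue, lies on chromosome 16, from 78332637 to 78377192 on the minus strand. Its levels were 33.9, 34.3 and 35.7 CPM in 5-FU+FMT, 32.6, 27.1 and 28.3 CPM in 5-FU+Saline, and 48.5, 52.5 and 51.5 CPM in Control. The highest 5-FU+Saline library came within a few CPM of the 5-FU+FMT libraries, without reaching them. Btg3 was 1.73-fold lower in 5-FU+Saline than in Control (adjusted p 2.22e-16) and 1.47-fold lower in 5-FU+FMT than in Control (adjusted p 4.15e-10). Its rise in 5-FU+FMT against 5-FU+Saline was 1.18-fold (adjusted p 0.00740), and without 5-FU+Saline replicate 2 the call was lost (log2 fold change 0.19, adjusted p 0.0700). Cxadr, on the other strand, overlaps Btg3 and reached at most 61 counts in a library, and Gm49590, on the same strand, at most 11.

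Tob1 encodes a protein that joins the deadenylase to the poly(A)-binding protein and restrains T cell activation. It lies on chromosome 11, from 94211454 to 94215495 on the plus strand. Tob1 levels were 32.2, 32.1 and 32.4 CPM in 5-FU+FMT, 23.9, 20.9 and 22.3 CPM in 5-FU+Saline, and 49.97, 56.2 and 49.0 CPM in Control. The groups were apart, with the 5-FU+FMT libraries nearly equal to each other. Tob1 was 2.30-fold lower in 5-FU+Saline than in Control (log2 fold change -1.20, SE 0.0754, adjusted p 2.95e-24). It was 1.44-fold higher in 5-FU+FMT than in 5-FU+Saline (adjusted p 5.45e-08) and 1.597-fold lower in 5-FU+FMT than in Control (adjusted p 1.07e-12).

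Its paralogue Tob2 lies on chromosome 15, from 81848272 to 81858796 on the minus strand. It had 106, 103 and 100.2 CPM in 5-FU+FMT, 99.7, 96.7 and 98.2 CPM in 5-FU+Saline, and 130.1, 139 and 129 CPM in Control. The 5-FU+FMT and 5-FU+Saline libraries lay side by side, barely without overlap, and both lay under the Control libraries. Tob2 was 1.35-fold lower in 5-FU+Saline than in Control (adjusted p 1.01e-14) and 1.28-fold lower in 5-FU+FMT than in Control (adjusted p 2.75e-11). Between 5-FU+FMT and 5-FU+Saline the log2 fold change was 0.07 (SE 0.0434, adjusted p 0.215), which missed the threshold under each of the 17 alternatives.

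**Figure D2:**
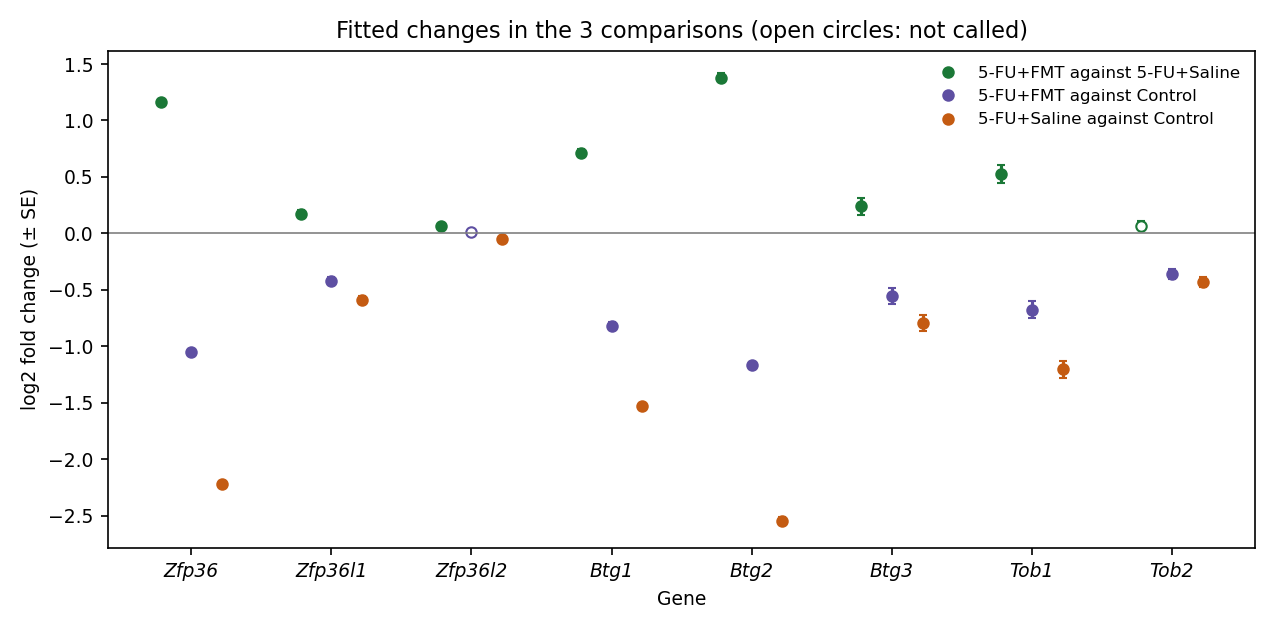
Fitted log2 fold change of each gene in the 3 comparisons, with bars of 1 standard error; filled points passed an adjusted p under 0.05 and open points did not. Btg2 and Zfp36 lie farthest from 0 in every comparison, while Zfp36l2 lies within 0.07 of 0 in each.

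Levels of different genes were compared as CPM per kilobase of exon. The exon length used for Zfp36, 3470 bases, covers its whole gene, so its CPM per kb would be higher for a shorter transcript. The orders between genes given here rest on the lengths used. Zfp36 and Zfp36l2 were the most abundant of the 8 by far. In 5-FU+FMT, Zfp36l2 stood at 544 ± 7.65 and Zfp36 at 328 ± 12.6 CPM per kb, in 5-FU+Saline at 519 ± 8.61 and 146 ± 3.16, and in Control at 538 ± 3.31 and 678 ± 4.05 (SD, n = 3 each). By this measure Zfp36l2 was the highest of the 8 in 5-FU+FMT and 5-FU+Saline, and Zfp36 in Control. Among the 16595 genes Zfp36 ranked 108th in 5-FU+FMT, 254th in 5-FU+Saline and 43rd in Control, while Zfp36l2 ranked 56th in 5-FU+FMT, 57th in 5-FU+Saline and 68th in Control. Btg2 came next in 5-FU+FMT and Control, at 84.3 ± 5.08 and 189 ± 3.88 CPM per kb, but Zfp36l1 stood above it in 5-FU+Saline, at 49.8 ± 0.834 against 32.3 ± 1.58 CPM per kb. The lowest was Btg3, at 8.62 CPM per kb in 5-FU+FMT, 7.31 in 5-FU+Saline and 12.7 in Control. The neighbours Tob1 and Tob2 stood at 14.1 ± 0.0743 and 15.5 ± 0.432 CPM per kb in 5-FU+FMT and at 22.6 ± 1.71 and 19.9 ± 0.877 in Control, so their order differed between these groups.

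The mix of paralogues within each family differed between the groups by more than the spread between libraries. Zfp36 made up 35.3 ± 0.634% of the family's summed CPM per kb in 5-FU+FMT, 20.4 ± 0.401% in 5-FU+Saline and 52.5 ± 0.246% in Control. Zfp36l2 made up 58.6 ± 0.566% in 5-FU+FMT, 72.6 ± 0.333% in 5-FU+Saline and 41.6 ± 0.283% in Control. With the lengths used, Zfp36l2 thus had the largest share in both groups given 5-FU and Zfp36 in Control. A shorter length for Zfp36 would raise its share in every group. Among the BTG genes, Btg2 made up 63.2 ± 0.831% in 5-FU+FMT, 50.3 ± 1.42% in 5-FU+Saline and 69.3 ± 0.705% in Control. Btg1 and Btg3 took the rest, with Btg3 alone at 6.48 ± 0.183% in 5-FU+FMT, 11.4 ± 0.995% in 5-FU+Saline and 4.64 ± 0.239% in Control. Tob1 made up 47.7 ± 0.780% of the TOB sum in 5-FU+FMT, 39.9 ± 1.24% in 5-FU+Saline and 53.1 ± 0.764% in Control (SD, n = 3 each). For each of the 8 genes and 3 comparisons the shares of the libraries did not overlap. The shares of a family add up to the whole, so these results are not independent, and those of Tob1 and Tob2 mirror each other. The two-sided exact permutation test gave 0.10 for each of these 24 comparisons, the smallest p that 3 libraries against 3 allow, and 0.10 after Benjamini-Hochberg adjustment, so none could pass 0.05.

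**Figure D3:**
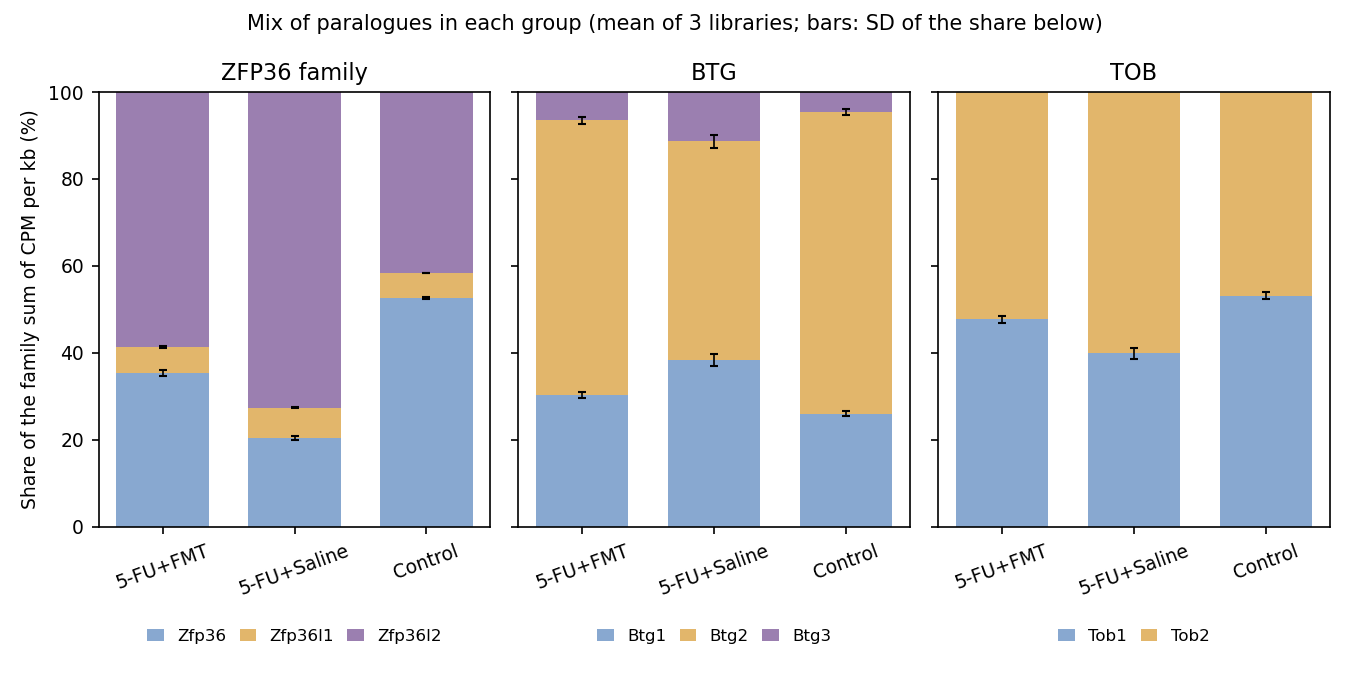
Share of each gene in its family's summed CPM per kb, as stacked bars from 0 to 100% (mean of 3 libraries, with the SD at the top of each segment but the uppermost). The Zfp36 segment is tallest in Control at 52.5% and shortest in 5-FU+Saline at 20.4%, with 5-FU+FMT at 35.3%.

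For each gene, the genes with the most similar pattern were found among 13606 tested genes by the root mean square difference of log2(CPM + 0.5), centred per gene, over the 9 libraries. Zfp36 was closest to Zbtb10 (0.0592), Jund (0.0619) and Smad7 (0.0745). Btg2 was closest to Rgs1 (0.0636), Dusp1 (0.0860) and Cyp26b1 (0.0897), and Btg1 to Hspa5 (0.0245), Junb (0.0251) and Tsc22d1 (0.0268). Jund and Junb encode AP-1 subunits, and Dusp1 encodes the phosphatase that switches off the kinase p38. Zfp36l1 was closest to Mdm2 (0.0274), and Zfp36l2 to Cds2 (0.0218), a gene that was likewise nearly level at 143 CPM in 5-FU+FMT, 140.0 CPM in 5-FU+Saline and 143 CPM in Control. Nearest to Btg3, Tob1 and Tob2 were Zswim4, Pld2 and Usp19. The 3rd closest genes to Tob1 and Tob2 were the immunoglobulin genes Ighm (0.0639) and Igkc (0.0452). Between members of the set, Btg2 was the 43rd closest gene to Zfp36 (0.147), Tob1 the 161st closest to Btg1 (0.156), and Tob2 the 276th closest to Zfp36l1 (0.0820). These values describe 9 libraries that fall into 3 groups, and carry no test.

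The partners of these proteins changed in mixed directions. The 11 CCR4-NOT genes tested included 6 called higher and 3 called lower in 5-FU+Saline against Control, with a median log2 fold change of 0.15, where 32.8% of all genes were called higher and 32.7% lower. In 5-FU+FMT against 5-FU+Saline, 2 were higher and 5 lower (median -0.11), where 17.7% of all genes were higher and 19.2% lower, and without 5-FU+FMT replicate 1 the number called was 4 in place of 7. Against Control, 5 were higher and 1 lower in 5-FU+FMT (median 0.05), where 25.0% of all genes were higher and 21.6% lower. Cnot7 and Cnot8, which encode the deadenylase subunits that BTG and TOB proteins bind, were the 2 called higher in 5-FU+FMT against 5-FU+Saline. Cnot7 averaged 100.4 ± 2.12 CPM in 5-FU+FMT, 89.1 ± 1.14 CPM in 5-FU+Saline and 118 ± 4.47 CPM in Control (SD, n = 3 each). It fell in 5-FU+Saline against Control (log2 fold change -0.40, adjusted p 6.11e-13), rose in 5-FU+FMT against 5-FU+Saline (0.17, adjusted p 0.00117) and was lower in 5-FU+FMT than in Control (-0.23, adjusted p 8.81e-06). Cnot9, which encodes the subunit that binds RNA-binding regulators, went the other way, at 106 ± 2.56 CPM in 5-FU+FMT, 125 ± 4.29 CPM in 5-FU+Saline and 73.9 ± 2.07 CPM in Control.

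Of 24 other genes of poly(A) removal, decapping and exonuclease decay, 15 were called higher and 6 lower in 5-FU+Saline against Control (median 0.26), 2 higher and 9 lower in 5-FU+FMT against 5-FU+Saline (median -0.10), and 12 higher and 3 lower in 5-FU+FMT against Control (median 0.11). The shares over all genes were 32.8% higher and 32.7% lower in 5-FU+Saline against Control, 17.7% and 19.2% in 5-FU+FMT against 5-FU+Saline, and 25.0% and 21.6% in 5-FU+FMT against Control. Dcp2, the decapping enzyme, averaged 119.7 ± 3.02 CPM in 5-FU+FMT, 136 ± 5.23 CPM in 5-FU+Saline and 89.4 ± 8.87 CPM in Control. Pan3, a subunit of the other cytoplasmic deadenylase, followed the opposite order, at 214 ± 10.3 CPM in 5-FU+FMT, 167 ± 1.58 CPM in 5-FU+Saline and 297 ± 14.2 CPM in Control (SD, n = 3 each). It was 1.78-fold lower in 5-FU+Saline than in Control (adjusted p 6.88e-35) and 1.28-fold higher in 5-FU+FMT than in 5-FU+Saline (adjusted p 4.69e-14).

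Among 14 other RNA-binding regulators of mRNA stability and translation, 5 were higher and 7 lower in 5-FU+Saline against Control (median -0.12), 3 higher and 5 lower in 5-FU+FMT against 5-FU+Saline (median -0.01), and 4 higher and 5 lower in 5-FU+FMT against Control (median -0.06). Over all genes, 32.8% were called higher and 32.7% lower in 5-FU+Saline against Control, and 17.7% and 19.2% in 5-FU+FMT against 5-FU+Saline. In 5-FU+FMT against Control those shares were 25.0% and 21.6%. Without 5-FU+Saline replicate 3 or without 5-FU+FMT replicate 3, the number called in 5-FU+FMT against 5-FU+Saline was 5 in place of 8. Zc3h12a, which encodes the endonuclease regnase-1 that cuts cytokine mRNAs, averaged 89.6 ± 1.75 CPM in 5-FU+FMT, 60.8 ± 2.49 CPM in 5-FU+Saline and 179 ± 7.83 CPM in Control. It was 2.95-fold lower in 5-FU+Saline than in Control (adjusted p 2.75e-45) and 1.47-fold higher in 5-FU+FMT than in 5-FU+Saline (adjusted p 5.84e-17). Hnrnpd, whose product AUF1 also binds AU-rich sequences, had 324 ± 5.88 CPM in 5-FU+FMT, 398 ± 1.36 CPM in 5-FU+Saline and 241 ± 10.8 CPM in Control, an order opposite to that of Zfp36. Khsrp, which encodes another such decay factor, had 277 ± 1.96 CPM in 5-FU+FMT, 329 ± 6.03 CPM in 5-FU+Saline and 251 ± 6.97 CPM in Control (SD, n = 3 each).

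Phosphorylation by the kinase MK2, which acts downstream of p38, and binding of 14-3-3 proteins hold tristetraprolin inactive. Of 11 genes of this axis, 7 were higher and 4 lower in 5-FU+Saline against Control (median 0.11), 2 higher and 6 lower in 5-FU+FMT against 5-FU+Saline (median -0.09), and 5 higher and 4 lower in 5-FU+FMT against Control (median 0.03). The shares of all genes called higher and lower were 32.8% and 32.7% in 5-FU+Saline against Control. They were 17.7% and 19.2% in 5-FU+FMT against 5-FU+Saline, and 25.0% and 21.6% in 5-FU+FMT against Control. Dusp1, the phosphatase that inactivates p38, averaged 533 ± 30.8 CPM in 5-FU+FMT, 183 ± 4.19 CPM in 5-FU+Saline and 1091 ± 23.8 CPM in Control (SD, n = 3 each). It was 5.98-fold lower in 5-FU+Saline than in Control (adjusted p 1.08e-71) and 2.92-fold higher in 5-FU+FMT than in 5-FU+Saline (adjusted p 1.29e-55). The 14-3-3 gene Ywhae moved in the opposite order, at 451 ± 10.6 CPM in 5-FU+FMT, 549 ± 11.03 CPM in 5-FU+Saline and 316 ± 4.58 CPM in Control.

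**Figure D4:**
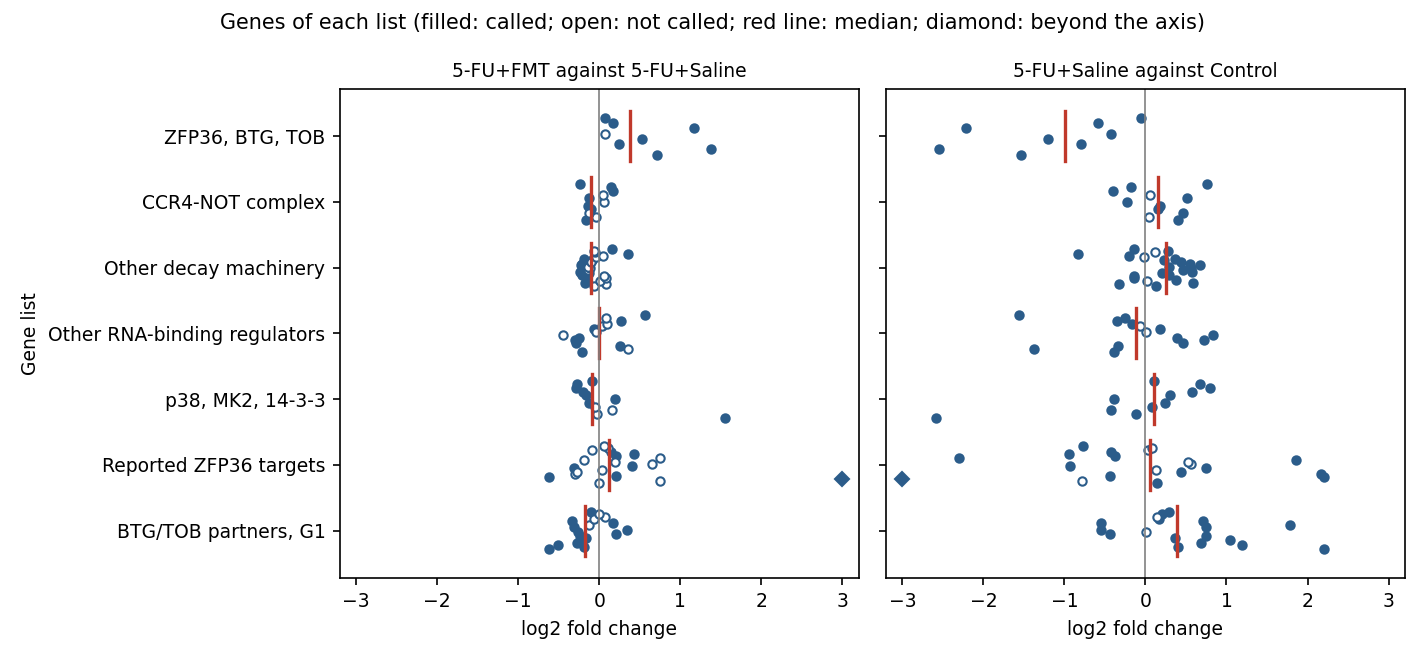
Fitted log2 fold changes of the 8 genes and of 6 related gene lists, in 5-FU+FMT against 5-FU+Saline (left) and 5-FU+Saline against Control (right); each point is a gene, filled where called, the red line is the list's median and a diamond marks Ccl3, which lies beyond the axis. The 8 genes have a median of 0.38 in the left panel and -0.998 in the right one, while the medians of the 6 other lists lie between -0.17 and 0.13 at the left and between -0.12 and 0.38 at the right. The immediate early genes, described further on, are not drawn. Their medians went the same way as those of the 8 genes and further, at 1.304 and -2.31 in these comparisons.

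A list of 22 mRNAs reported as ZFP36-family targets, 20 of them tested, showed no common direction. It held 6 genes called higher and 8 lower in 5-FU+Saline against Control (median 0.05), 6 higher and 2 lower in 5-FU+FMT against 5-FU+Saline (median 0.13), and 5 higher and 8 lower in 5-FU+FMT against Control (median 0.05). Of all genes, 32.8% were called higher and 32.7% lower in 5-FU+Saline against Control, and 17.7% and 19.2% in 5-FU+FMT against 5-FU+Saline. For 5-FU+FMT against Control the shares were 25.0% and 21.6%. Ccl3, a chemokine gene, averaged 38.8 ± 2.70 CPM in 5-FU+FMT, 0.594 ± 0.247 CPM in 5-FU+Saline and 108 ± 1.64 CPM in Control. Notch1 followed the same order, at 134 ± 7.00 CPM in 5-FU+FMT, 99.9 ± 4.78 CPM in 5-FU+Saline and 193 ± 1.79 CPM in Control. Ccnd1, the cyclin D1 gene, followed the opposite one, at 72.6 ± 2.33 CPM in 5-FU+FMT, 112 ± 5.93 CPM in 5-FU+Saline and 24.1 ± 1.21 CPM in Control (SD, n = 3 each). Tnf, the classical target, was not called in any of the 3 comparisons, with log2 fold changes of 0.08 in 5-FU+Saline against Control, 0.11 in 5-FU+FMT against 5-FU+Saline and 0.19 in 5-FU+FMT against Control; it is named by choice after its values were seen.

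Of 18 BTG and TOB partners and genes of the G1 phase of the cell cycle, which BTG and TOB proteins are known to delay, 13 were higher and 3 lower in 5-FU+Saline against Control (median 0.38), where 32.8% of all genes were higher and 32.7% lower. In 5-FU+FMT against 5-FU+Saline 3 were higher and 11 lower (median -0.17), where 17.7% of all genes were higher and 19.2% lower. Against Control, 13 were higher and 4 lower in 5-FU+FMT (median 0.22), where 25.0% of all genes were higher and 21.6% lower. Ccnd3, the cyclin D3 gene, averaged 218 ± 1.71 CPM in 5-FU+FMT, 309 ± 8.17 CPM in 5-FU+Saline and 135 ± 5.80 CPM in Control. It was 2.29-fold higher in 5-FU+Saline than in Control (adjusted p 1.35e-45) and 1.42-fold lower in 5-FU+FMT than in 5-FU+Saline (adjusted p 3.50e-23). Cdkn1b, which encodes the cyclin-dependent kinase inhibitor p27, had the order of Zfp36 and Btg2, at 122 ± 5.35 CPM in 5-FU+FMT, 96.2 ± 4.07 CPM in 5-FU+Saline and 141 ± 4.13 CPM in Control (SD, n = 3 each). Cdk6, a cyclin-dependent kinase gene, had that order too, at 484 ± 3.16 CPM in 5-FU+FMT, 419 ± 6.74 CPM in 5-FU+Saline and 564 ± 12.8 CPM in Control. It was 1.35-fold lower in 5-FU+Saline than in Control (adjusted p 1.09e-24). The list holds cyclins and kinases beside inhibitors such as Cdkn1b, so its counts give no single direction for the cell cycle. The list shares Ccnd1, E2f1 and Cdk6 with the list of reported targets.

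Immediate early genes are the class transcribed at once after stimulation, to which Zfp36 and Btg2 are commonly assigned. All 19 on the list, which includes neither of these genes, were lower in 5-FU+Saline than in Control (median -2.31), higher in 5-FU+FMT than in 5-FU+Saline (median 1.304) and lower in 5-FU+FMT than in Control (median -1.07). Over all genes, 32.7% were called lower in 5-FU+Saline against Control, 17.7% higher in 5-FU+FMT against 5-FU+Saline and 21.6% lower in 5-FU+FMT against Control. The summed level of the list was 11678 to 12752 CPM in 5-FU+FMT, 4192 to 4226 CPM in 5-FU+Saline and 27102 to 27265 CPM in Control. None of the 19 was at 0 in any group. Fosb, an AP-1 subunit gene, averaged 2495 ± 110.0 CPM in 5-FU+FMT, 577 ± 9.28 CPM in 5-FU+Saline and 6149 ± 36.6 CPM in Control (SD, n = 3 each). The fitted changes of Zfp36 and Btg2 lay near the list's medians, and those of Zfp36l2, Tob2 and Zfp36l1 far closer to 0. The part of the immediate early genes in the changes of the 8 genes was not tested.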

How the data were processed

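The authors deposited read counts for every gene, in separate tables by library. The submitters' processing notes name Trim Galore 0.6.5, HISAT2 2.2.1, SAMtools, featureCounts 2.0.1 and the mm10 build. In the file headers featureCounts counts read pairs over exons per gene on GENCODE M25, with no option for strand. Overlapping genes on opposite strands therefore cannot be separated. No gene that overlaps one of the 8 exceeded 61 counts in a library, but these counts do not show how many read pairs fell in shared stretches. Gene lengths in base pairs, another column of the deposited tables, were used for CPM per kb.

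Everything else was computed here. Symbols came from a reference table (55141 of 56262 IDs matched). Genes were filtered with filterByExpr and libraries scaled by the trimmed mean of M values, and CPM are counts divided by the scaled library size. The 9 libraries were fitted together with edgeR 4.0.16 (glmQLFit and glmQLFTest, R 4.3.3), p-values were adjusted over the 16595 genes of a comparison, and every adjusted p of a single gene in the text comes from this test unless an alternative is named. SEs are of the log2 fold change. Alternatives used DESeq2 1.42.0 and limma 3.58.1, among others. Replicate numbers gave no sign of pairing the libraries and were not used as pairs in the main fit, and groups came from the sample labels. Promoters are from RefSeq (GRCm38.p6), and 3′ UTRs were derived from GENCODE M21. The members and lists were chosen with earlier results of these data known. Named besides the 8 genes are genes chosen per list and comparison from the called ones with the smallest p, up to 4 with both directions where both held calls, and for each of the 8 genes those closest in pattern; not all that the rule takes are printed. Matplotlib 3.10.9 (Python 3.11.15) drew the figures.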

Additional observations from a re-analysis of the deposited data

How the results depend on the processing

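Over 17 alternatives (other scalings, tools and filters, only the groups compared, the replicate number as a block, and each library left out), Zfp36, Zfp36l1, Btg1, Btg2 and Tob1 kept their direction and their side of the threshold in all 3 comparisons, as did Tob2, and Btg3 in all but the call given above. The number of genes called lower among the 8 in 5-FU+Saline against Control was 7 or 8 with a library left out, and the number called higher in 5-FU+FMT against 5-FU+Saline was 6 or 7. Without a filter on low counts, 1 gene was called higher in 5-FU+FMT against Control in place of 0: Zfp36l2, with a log2 fold change of 0.06 (adjusted p 0.0270). That fold change turned negative with upper-quartile factors (-0.0497, adjusted p 0.0556) and with the stricter filter of 10 CPM in 3 libraries (-0.0169, adjusted p 0.527); the cause was not tested. With the replicate block, 10847 genes were called in 5-FU+Saline against Control, 6193 in 5-FU+FMT against 5-FU+Saline and 7717 in 5-FU+FMT against Control, against 10872, 6123 and 7735 without it, and the calls of the 8 genes numbered 8, 7 and 7 in both fits. Deviations of same-numbered libraries had correlations of -0.0173 to 0.0194, and those of differently numbered ones -0.0296 to 0.0281. These values gave no sign that the numbers pair the libraries. They cannot exclude pairing, because the spread between libraries may be technical. Shares of raw counts, not divided by length, kept the direction of all 24 paralogue differences. With 3 libraries a group, exact tests of shares cannot pass 0.05.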
